A study of Mus musculus with 8 samples.

Results

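The genes described here are 10 transcripts of neutrophil granules and of the calprotectin complex, namely S100a8, S100a9, Ngp, Camp, Ltf, Lcn2, Mmp8, Mmp9, Retnlg and Wfdc21. They were taken by symbol from the 27998 genes of the matrices, where each occurs 1 time. The rule is a list of symbols and uses no measured value, but the list was drawn up with earlier results of these data known. Left ventricles of male C57BL/6 mice aged 10 to 12 weeks were studied by single-cell RNA sequencing 6 h after surgery. In ischemia–reperfusion (IR) mice the left anterior descending coronary artery was tied for 30 min and released, and sham mice had the operation without the ligature. Each condition has 4 samples, and each sample pools the cells of 3 hearts. The sample labels give the sham samples the time 0 h, whereas the protocol takes both groups at 6 h. The deposited data are 1 matrix per condition in which no barcode names its sample, so sham and IR are 1 library each. No difference between them has a replicate check, no test was made, and all intervals are 95% intervals that cover counting error only.

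Neutrophils carry their proteins in granules that are filled one kind after another while the cell matures in the bone marrow. Specific granule genes such as Ltf, Camp and Ngp are transcribed mainly in myelocytes, gelatinase granule genes such as Mmp9 later, and the mature cell that leaves the marrow has largely shut off the earlier sets while keeping the proteins. S100a8 and S100a9 encode the calcium-binding subunits of calprotectin, an abundant cytosolic protein of neutrophils that acts on Toll-like receptor 4 once released. A droplet also takes up RNA from broken cells in the suspension, so transcripts as abundant as these are read at a low level in cells that do not make them.

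Cells were assigned to classes by the unique molecular identifiers (UMIs, each standing for 1 captured RNA molecule) of marker genes, and none of the 10 genes was a marker. Of 11620 sham and 8539 IR barcodes, 9777 and 4880 passed the study's limits on genes and mitochondrial UMIs, and 86.1% and 89.0% of these fell in a class. The upper limit of 2500 genes left out 1600 sham and 3385 IR barcodes, and the libraries shared 30 barcodes. Neutrophils were 260 of the sham cells (2.66%) and 2394 of the IR cells (49.1%), with a median of 1779 and 3952 UMIs per cell. Lymphocytes (B, T and NK cells) were 1506 and 898 cells at a median of 2426 and 3593 UMIs, and stromal cells (fibroblasts, endothelial and mural cells) were 3295 and 322 cells at 4583 and 4078 UMIs. All 8 neutrophil markers were found in the neutrophils of both libraries, at a summed 10183 counts per 1000000 UMIs of the class (CPM) in sham and 19783 CPM in IR. The same markers summed to 55.9 and 193 CPM in lymphocytes and to 523 and 326 CPM in stromal cells, where G0s2 alone made up 509 and 232 CPM. Reads were counted at the 3′ end, where a transcript gives its UMIs whatever its length, so CPM of different genes were compared without a correction for length.

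In the GENCODE annotation of GRCm38, the build named mm10 in the labels, all 10 are protein-coding genes and none overlaps another gene on either strand. S100a8 (chromosome 3, 90668978 to 90670035) and S100a9 (chromosome 3, 90692632 to 90695721) lie 22.6 kb apart, and Camp (chromosome 9, 109847379 to 109849617), Ngp (chromosome 9, 110419747 to 110423012) and Ltf (chromosome 9, 111019271 to 111042767) are separated by 570 and 596 kb. Mmp8 lies elsewhere on chromosome 9, Lcn2 and Mmp9 on chromosome 2, Wfdc21 on chromosome 11 and Retnlg on chromosome 16. Granule genes are classic targets of C/EBP transcription factors, and C/EBPε is needed for specific granules to form. The 250 bases before the RefSeq transcription start (GRCm38.p6) were listed for 8 of the 10 genes, all but Mmp9 and Wfdc21. The letters TTNNGCAA, a C/EBP-type motif, or TTGCNNAA on the other strand were found in 6 of these 8 windows and in 9.56% of all 32851 promoter windows of that length. The PU.1-like ETS letters GAGGAA or their reverse complement were in 4 of the 8 and in 23.3% of all windows. Windows of 5 genes with a C/EBP-type match are printed because they hold an abundant calprotectin gene, the third most abundant member, the member past 2-fold higher in IR neutrophils and a pair of genes whose sham UMIs came mainly from 1 cell. They run 5′ to 3′ on the strand of the gene, end before the annotated gene, and have the C/EBP-type match in capitals.
S100a9, chr3:90695722-90695971, minus strand: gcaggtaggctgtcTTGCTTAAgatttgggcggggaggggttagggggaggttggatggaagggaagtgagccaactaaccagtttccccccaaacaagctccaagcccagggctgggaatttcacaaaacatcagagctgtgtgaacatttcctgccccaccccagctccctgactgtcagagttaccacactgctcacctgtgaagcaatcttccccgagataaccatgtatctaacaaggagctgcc
Retnlg, chr16:48872358-48872607, plus strand: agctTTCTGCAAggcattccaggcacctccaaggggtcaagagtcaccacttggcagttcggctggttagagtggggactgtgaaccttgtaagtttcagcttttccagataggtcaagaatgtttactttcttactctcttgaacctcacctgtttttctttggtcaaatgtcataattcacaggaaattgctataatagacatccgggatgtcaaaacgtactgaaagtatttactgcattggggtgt
Mmp8, chr9:7558179-7558428, plus strand: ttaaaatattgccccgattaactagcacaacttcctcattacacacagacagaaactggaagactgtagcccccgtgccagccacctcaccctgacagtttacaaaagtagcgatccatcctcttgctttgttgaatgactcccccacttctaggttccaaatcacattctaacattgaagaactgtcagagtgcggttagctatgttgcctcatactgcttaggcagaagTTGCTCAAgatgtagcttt
Ngp, chr9:110419558-110419746, plus strand: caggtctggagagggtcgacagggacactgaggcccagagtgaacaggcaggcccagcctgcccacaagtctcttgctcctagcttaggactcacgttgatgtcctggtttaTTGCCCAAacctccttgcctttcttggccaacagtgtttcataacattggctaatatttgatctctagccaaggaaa
Ltf, chr9:111019042-111019270, plus strand: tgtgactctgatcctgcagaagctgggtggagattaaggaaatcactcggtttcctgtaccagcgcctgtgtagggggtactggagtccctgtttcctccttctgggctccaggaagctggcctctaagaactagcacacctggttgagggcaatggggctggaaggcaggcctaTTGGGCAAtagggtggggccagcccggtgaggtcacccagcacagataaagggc
The capitals begin 236 bases before the RefSeq start of S100a9, 246 before that of Retnlg, 19 before that of Mmp8, 138 before that of Ngp and 75 before that of Ltf. Ngp had another match 11 bases before its RefSeq start, inside the annotated gene, and S100a8 and Camp had none. These matches describe letters only, and no binding was measured in these libraries.

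S100a9 and S100a8 were the most and the next most abundant transcripts of neutrophils in both libraries, S100a9 at a lower and S100a8 at a similar level in IR. S100a9 stood at 92889 CPM in sham (92137 to 93646) and 72690 CPM in IR (72524 to 72857), a log2 ratio of IR over sham of −0.35 (−0.37 to −0.34). S100a8 stood at 46403 CPM in sham (45871 to 46938) and 44549 CPM in IR (44419 to 44679), a log2 ratio of −0.06 (−0.08 to −0.04). Together they were 13.9% of all neutrophil UMIs in sham and 11.7% in IR. Because IR neutrophils yielded more UMIs, the molecules captured per cell went the other way. S100a9 had 224 UMIs per cell in sham and 308 in IR, and S100a8 had 112 and 188. After each cell was thinned to 500 UMIs, S100a9 was found in 96.5% of sham and 98.2% of IR neutrophils, and before thinning S100a8 was found in 96.9% and 99.0%. Among cells of at least 1000 UMIs thinned to 1000, the levels of the 2 genes ran together, with a Spearman rho of 0.87 over 249 sham neutrophils and 0.90 over 2290 IR neutrophils. Cells of 1 library share its free RNA, so these values describe the library. S100a8 made up 33.3% of calprotectin UMIs in sham neutrophils (33.0 to 33.6) and 38.0% in IR neutrophils (37.9 to 38.1).

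Retnlg and Wfdc21 encode a resistin-like secreted protein and a small protein with a whey acidic protein domain. Both were abundant in neutrophils of both libraries and, as CPM of the class, differed little between them. Retnlg had 12211 CPM in sham (11939 to 12487) and 10304 CPM in IR (10242 to 10367), a log2 ratio of −0.24 (−0.28 to −0.21), and ranked 6th and 10th among all genes by UMIs. Wfdc21 had 1523 CPM in sham (1428 to 1623) and 1584 CPM in IR (1560 to 1609), and the interval of its log2 ratio of 0.06 took in 0 (−0.04 to 0.15). Both genes were uneven between cells. The median neutrophil held 5.5 Retnlg UMIs in sham and 16 in IR, while the highest cell held 391 and 979. Wfdc21 was found in 46.9% of sham and 77.2% of IR neutrophils before thinning, and in 25.4% and 40.2% after it. Counted per cell, Wfdc21 had 3.68 UMIs in sham and 6.70 in IR, and as a mean over cells of CPM its log2 ratio was 0.37. The rank of Wfdc21 was 73 in sham and 87 in IR.

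Lcn2 and Mmp8 were higher and Mmp9 lower in the neutrophils of the IR library. Lcn2 encodes lipocalin-2, which withholds iron from bacteria by binding their siderophores, and had 2208 CPM in sham (2093 to 2327) and 3237 CPM in IR (3202 to 3272), a log2 ratio of 0.55 (0.47 to 0.63). It was found in 32.7% of thinned sham and 58.8% of thinned IR neutrophils. Mmp8, the neutrophil collagenase, had 341 CPM in sham (296 to 389) and 710 CPM in IR (694 to 727), a log2 ratio of 1.06 (0.86 to 1.26), with thinned shares of 12.7% and 22.5%. Mmp9, gelatinase B, had 1179 CPM in sham (1096 to 1267) and 607 CPM in IR (592 to 622), a log2 ratio of −0.96 (−1.07 to −0.85), with thinned shares of 41.5% and 24.8%. In summed UMIs Mmp9 stood above Mmp8 in sham and Mmp8 above Mmp9 in IR, with intervals that did not overlap in either library. By the share of cells with a UMI Mmp9 stayed ahead in IR, at 69.3% against 51.6% before thinning and at the thinned shares given. Counted per cell rather than as CPM, Mmp9 was closer, at 2.85 UMIs in sham and 2.57 in IR, and Mmp8 was at 0.823 and 3.005.

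The transcripts of Ngp, Camp and Ltf were scarce in most neutrophils, and their sham level came mainly from 1 cell. Ngp encodes a neutrophil granule protein related to cystatins, Camp the cathelicidin antimicrobial peptide and Ltf lactoferrin, which binds iron. Summed over all neutrophils, Ngp had 536 CPM in sham and 71.7 CPM in IR, Camp 417 and 1.48 CPM, and Ltf 177 and 11.9 CPM. A single sham neutrophil of 10405 UMIs, singled out after its values were seen, held 309 of the 337 Ngp UMIs (91.7%), 259 of the 262 Camp UMIs (98.9%) and 109 of the 111 Ltf UMIs (98.2%). The next highest sham cells held 8, 2 and 1. That cell also held 3023 S100a9, 2058 S100a8 and 223 Lcn2 UMIs, the last being 16.1% of the sham neutrophil total. It had no UMI of the mature neutrophil receptor Csf3r, 1 of Cxcr2 and 2 of Ly6g. Of the markers of monocytes and macrophages it had 15 UMIs of Ly6c2 and none of Csf1r. It also held 16 UMIs of Chil3. It had none of Elane and Mpo, the azurophil granule genes of the promyelocyte, and none of the proliferation gene Mki67. Of its 53 UMIs of all marker lists 36 were of neutrophil markers, 20 of them G0s2, and without G0s2 and Trem1 among the markers (16 of 33) it met no class gate.

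Without that cell the 3 genes gave another picture. The log2 ratio of Ngp was −2.90 (−3.09 to −2.71) with the cell and 0.66 (0.12 to 1.26) without it, when Ngp stood at 45.3 CPM in sham. That of Ltf was −3.89 (−4.27 to −3.50) with it and 1.88 (−0.00 to 4.95) without it, on 2 sham UMIs. That of Camp was −8.14 (−8.99 to −7.39) with it and −1.71 (−3.54 to 0.72) without it, on 3 sham UMIs. In the IR library Ngp was found in 222 of 2394 neutrophils (9.27%), with up to 56 UMIs in a cell, Ltf in 95 cells with up to 4, and Camp in 15 cells with 1 each. Single neutrophils with 10 or more Ngp UMIs were thus present in both libraries, 14 of them in IR, whereas no IR neutrophil reached 10 UMIs of Camp or Ltf. The same cell set the sign for S100a8, whose log2 ratio was 0.02 (0.005 to 0.04) without it. Without it the log2 ratio of Lcn2 was 0.78, that of Mmp8 1.13 and that of Wfdc21 0.13 (0.04 to 0.23).

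**Figure D1:**
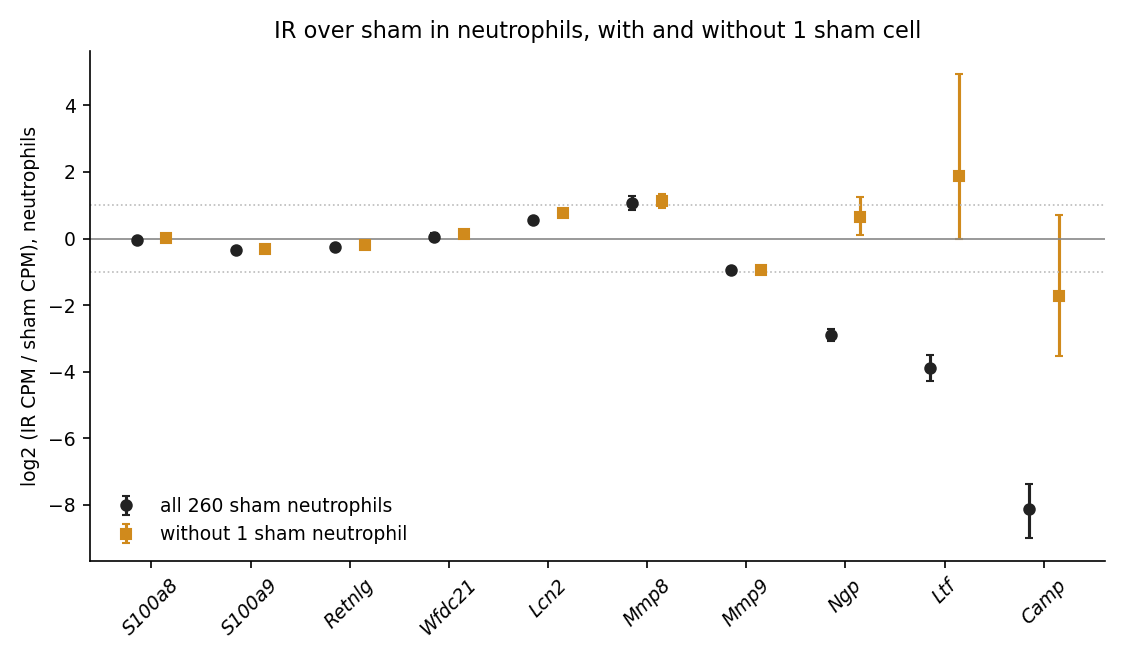
Log2 ratio of IR over sham CPM in neutrophils for each of the 10 genes (y axis), with all 260 sham neutrophils (black circles) and without the 1 sham neutrophil richest in Ngp, Camp and Ltf (orange squares); bars are 95% intervals of counting error and dotted lines mark 2-fold. The ratios of Ngp, Ltf and Camp move from −2.90, −3.89 and −8.14 to 0.66, 1.88 and −1.71, and that of Lcn2 from 0.55 to 0.78.

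Taken as a set, the 10 genes held 15.8% of all neutrophil UMIs in sham and 13.4% in IR, a log2 ratio of −0.24 (−0.25 to −0.23). All 10 passed the minimum of 10 CPM on average over the libraries. One gene, Mmp8, was at least 2-fold higher in IR, where 9.20% of the 5099 genes passing that minimum were. Ngp, Camp and Ltf, 3 of the 10, were at least 2-fold lower, where 26.3% of all genes were. Camp passed the minimum only through sham, at 1.48 CPM in IR, so its call as lower was fixed by the minimum. None of the 10 was counted as lower once the single sham cell was left out, since Camp was then under the minimum. The median log2 ratio was −0.30 over the members and −0.44 over all 5099 genes. The share of its UMIs that a single neutrophil gave to the 10 genes ran from 0% to 62.2% in sham, with a median of 13.2%, and from 0% to 42.1% in IR, with a median of 11.2%.

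In lymphocytes and stromal cells, which are not known to use most of these genes, S100a8, S100a9, Retnlg and Lcn2 were many times more frequent in the IR library than in sham. Some other members differed by cell type or had few UMIs. In lymphocytes Wfdc21 differed 1.28-fold per cell (0.859 to 1.89), Camp went from 14 UMIs, 11 of them in 1 cell, to 0 and Ltf from 5 to 0. In stromal cells Wfdc21 was 30.7-fold (7.66 to 176) and Camp 5.7-fold (1.5 to 18.9) higher per cell in IR, on 9 and 5 IR UMIs. Ngp had 5 UMIs in 3295 sham and 0 in 322 IR stromal cells, and 1 and 2 in lymphocytes, which are too few to compare. Lymphocytes held 0.0790 S100a9 UMIs per cell in sham and 2.23 in IR, a 28.3-fold ratio (23.5 to 34.3). They held 0.0438 and 1.35 S100a8 UMIs per cell, a 30.7-fold ratio (24.0 to 40.0). Stromal cells held 0.114 and 1.43 S100a9 UMIs per cell, a 12.6-fold ratio (10.98 to 14.5), and 0.0583 and 0.789 of S100a8, a 13.5-fold ratio (11.2 to 16.4). The stromal difference depended on the cells kept, and the log2 ratio of the summed genes was 4.39 as reported, 2.87 without the upper limit on genes and 3.23 under a looser class gate. Retnlg went from 0.00730 to 0.256 UMIs per lymphocyte, Lcn2 from 0.00266 to 0.0791, Mmp8 from 0.000664 to 0.0290 and Mmp9 from 0.00133 to 0.0145. The share of the kept cells that were neutrophils was 18.45 times higher in the IR library, and its part in these levels was not tested. That ratio depends on the upper limit on genes, which left out 1600 of 11620 sham and 3385 of 8539 IR barcodes. Without that limit neutrophils numbered 264 in sham and 2576 in IR. Neutrophil markers were also higher in IR lymphocytes, as given above. Hemoglobin transcripts stood at 6.82 and 10.6 UMIs per B cell, 13.8 and 1.63 per T or NK cell and 3.37 and 0.686 per stromal cell in sham and IR, and 4 cardiomyocyte transcripts at 0.230 and 0.146 per lymphocyte.

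The share of cells with a UMI shows the same contrast and depends on depth. An S100a9 UMI was found in 6.77% of sham and 77.1% of IR lymphocytes and in 7.65% and 71.7% of stromal cells, against 97.7% and 99.7% of neutrophils. With every cell thinned to 500 UMIs these shares were 1.33% (0.81 to 2.04) and 18.7% (16.2 to 21.4) in lymphocytes, 0.941% (0.64 to 1.33) and 19.3% (15.1 to 24.0) in stromal cells, and 96.5% and 98.2% in neutrophils. A few cells carried much more than the rest. In IR lymphocytes 9 cells with 10 or more S100a9 UMIs held 28.9% of them, the highest with 178, and the other lymphocytes held 1.60 per cell. No IR stromal cell reached 10, and in sham 1 mural cell with 106 UMIs held 67.5% of the S100a9 of its type. Leaving out lymphocytes and stromal cells with 10 or more calprotectin UMIs, which was done after seeing these values, gave a log2 ratio of IR over sham for the summed genes of 3.60 in lymphocytes and 4.85 in stromal cells, beside 3.99 and 4.39 with all cells. In the IR library deeper cells held more calprotectin RNA, but less per UMI. IR stromal cells above the median depth held 2.65 calprotectin UMIs per cell at a median of 5551 UMIs and those below it 1.80 at a median of 2499, which is 446 and 741 CPM.

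**Figure D2:**
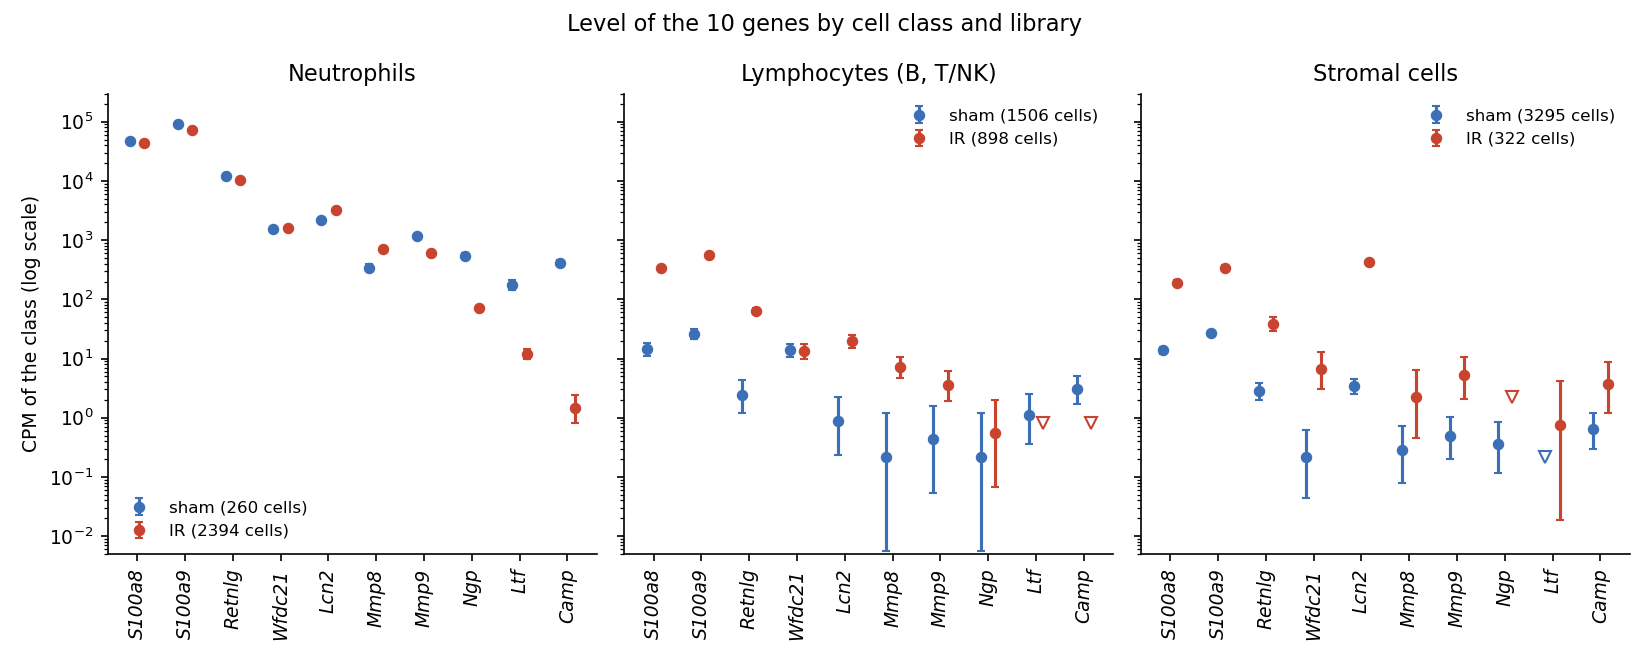
CPM of each gene (y axis, log scale) in neutrophils, lymphocytes and stromal cells of the sham (blue) and IR (red) libraries; bars are 95% Poisson intervals and open triangles mark the level of 3 UMIs where none was found. Neutrophil levels of S100a9 are 92889 and 72690 CPM, and its lymphocyte levels 26.1 and 553 CPM.

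By the count of genes past 2-fold, 5 of the 10 genes reached 10 CPM on average in lymphocytes, and 4 of these (S100a8, S100a9, Lcn2 and Retnlg) were higher in IR and none lower, where 2.50% and 3.07% of 6916 genes were. Wfdc21 was the fifth, at 13.8 CPM in sham and 13.2 CPM in IR. In stromal cells the same 4 genes were measured at that level and all were higher, where 12.4% of 8521 genes were higher and 8.65% lower. The median log2 ratio of those members was 4.48 in lymphocytes, against 0.05 over all genes, and 3.79 in stromal cells, against 0.10. The minimum was a mean over both libraries, and Lcn2 and Retnlg passed it only through IR. They had 0.877 and 2.41 CPM in sham lymphocytes and 3.42 and 2.78 CPM in sham stromal cells. Their call as higher was thus fixed by the minimum, which also bears on the counts and medians given. S100a8 and S100a9 were above 10 CPM in sham in both cell types. The other members had too few UMIs in these cells to pass the minimum. In IR lymphocytes no Camp or Ltf UMI was found, which allows up to 3 UMIs in 898 cells, and 2 of Ngp.

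In the IR library most of the genes had close to the same proportions in lymphocytes as in neutrophils. In sham Wfdc21, Camp and Ltf took larger shares in lymphocytes and S100a9, S100a8 and Retnlg smaller ones, while Lcn2 and Mmp9 were close. In IR S100a9 was 54.3% of the UMIs of the 10 genes in neutrophils and 55.6% in lymphocytes (54.0 to 57.3). S100a8 was 33.3% and 33.6% (32.0 to 35.1), Lcn2 2.42% and 1.97% (1.54 to 2.48), Mmp8 0.531% and 0.721% (0.47 to 1.05) and Wfdc21 1.18% and 1.33% (0.98 to 1.76). Retnlg lay a little lower in lymphocytes, at 7.70% and 6.38% (5.61 to 7.23). In sham S100a9 was 58.8% of these UMIs in neutrophils and 41.6% in lymphocytes (35.8 to 47.6), and S100a8 29.4% and 23.1% (18.3 to 28.4). Wfdc21 was 0.965% and 22.0% (17.4 to 27.3) and Camp 0.264% and 4.89% (2.70 to 8.08). Ltf was 0.112% and 1.75% (0.57 to 4.03) and Retnlg 7.73% and 3.85% (1.94 to 6.78). Lcn2 was 1.40% and 1.40% (0.38 to 3.54) and Mmp9 0.747% and 0.699% (0.08 to 2.50). Of the 286 lymphocyte UMIs in all, 63 were of Wfdc21 and 14 of Camp, which lowers the shares of the other genes. Read per cell, the IR lymphocyte level of the 8 genes found there was between 0.564% (Mmp9) and 0.964% (Mmp8) of the neutrophil level, while in sham it was 0.0352% for S100a9 and 0.0391% for S100a8 but 1.14% for Wfdc21, 0.922% for Camp and 0.778% for Ltf. S100a8 was 37.6% of the calprotectin UMIs of IR lymphocytes (35.9 to 39.3) and 35.5% of those of IR stromal cells (32.0 to 39.1), beside 38.0% in IR neutrophils. In sham it was 35.7% in lymphocytes (28.8 to 43.0) and 33.9% in stromal cells (30.0 to 37.9), beside 33.3% in neutrophils. In monocytes and macrophages of the IR library it was 47.8% (45.9 to 49.6), and calprotectin stood at 330 CPM of S100a8 and 361 CPM of S100a9.

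Some genes stood above this common level in particular cell types. Lcn2 in IR endothelial cells had 2222 CPM (2017 to 2443), 61.6% of the neutrophil level per cell, and 46.4 CPM in sham endothelial cells (31.9 to 65.2). Its 430 IR UMIs came from 15 of 51 endothelial cells, 7 of which held 406. The 15 cells held 1.53 calprotectin UMIs each and the other endothelial cells 1.94. IR fibroblasts had 208 CPM of Lcn2 (175 to 246) against 1.31 CPM in sham (0.73 to 2.16), from 14 of 144 cells of which 3 held 120 of the 140 UMIs. Mural cells had 27.0 CPM in IR (14.4 to 46.2), 0.747% of the neutrophil level per cell, and no UMI in sham. Lcn2 alone was thereby 42.4% of the UMIs of the 10 genes in IR stromal cells.

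Mmp8 in monocytes and macrophages had 2.93 CPM in sham (2.15 to 3.89) and 152 CPM in IR (141 to 164), 29.9% of the neutrophil level per cell. It was found in 22.0% of these IR cells at a median depth of 6376 UMIs, against 2.67% of IR lymphocytes, and after thinning in 6.49% against 0.445%. The Mmp8-positive IR cells held 6.38 calprotectin UMIs each and the negative ones 3.44, while in sham 26 positive cells held 59.4 and the others 0.354. A few cells weigh on the sham mean, since 13 monocytes and macrophages held 79.8% of the S100a9 UMIs of their type and 1 held 540. Mmp9 was at 3.98 CPM in the same IR cells (2.32 to 6.37), close to the 3.58 CPM of lymphocytes. Wfdc21 differed between lymphocyte types in sham, with 62 UMIs in 31 of 1090 B cells (19.3 CPM) and 1 UMI in 416 T and NK cells (0.738 CPM). The sham B cells with Wfdc21 held 0.0645 calprotectin UMIs each and the others 0.115. In IR it was the reverse, with 19.4 in the 29 B cells with Wfdc21 and 3.03 in the others, where 7 B cells held 32.9% of the S100a9 UMIs of their type and the highest held 178. Camp had 12 UMIs in sham T and NK cells, 11 of them in 1 cell.

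**Figure D3:**
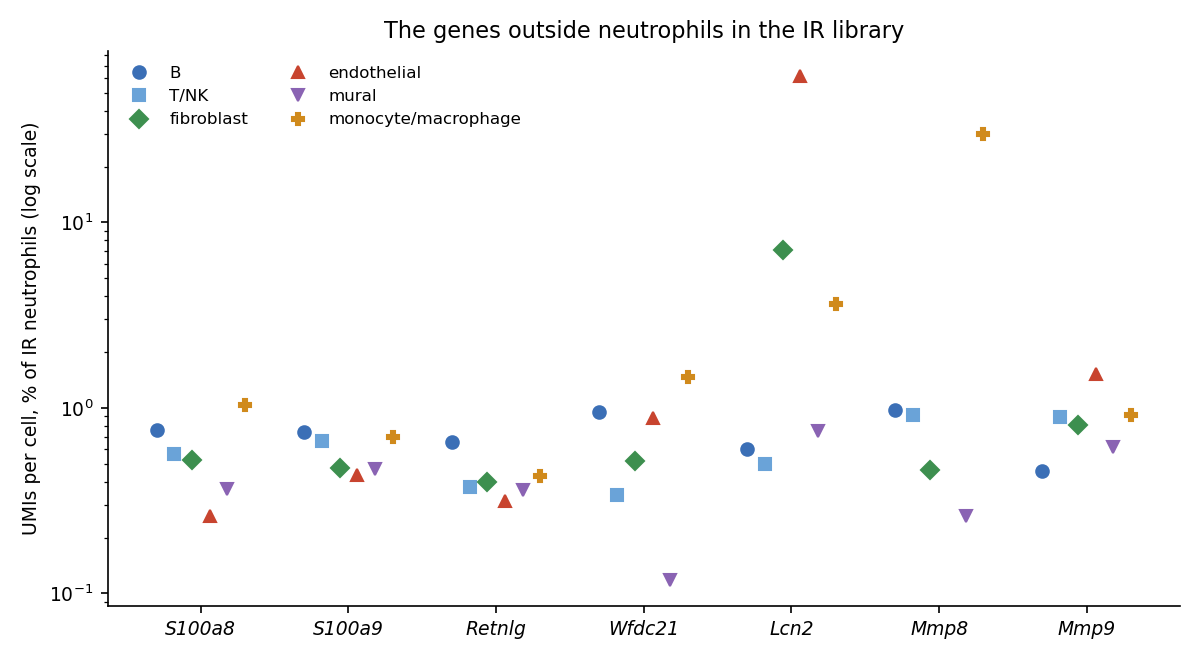
UMIs per cell of 7 genes in 6 cell types of the IR library as a percent of the level per cell in IR neutrophils (y axis, log scale), with types without a UMI left out. Points of B cells lie between 0.459% (Mmp9) and 0.980% (Mmp8), while Lcn2 stands at 61.6% in endothelial cells and 7.10% in fibroblasts and Mmp8 at 29.9% in monocytes and macrophages.

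Within IR neutrophils the members other than Camp and Ltf were lower in cells with the most UMIs of 7 activation genes. These were Cxcl3, Spp1, Ccl3, Ccl4, Tnf, Icam1 and Cd274, which encode chemokines, cytokines and surface proteins made by activated cells. The median neutrophil held 1 UMI of these genes in sham and 50 in IR. After thinning to 500 UMIs, 153, 81 and 26 sham cells and 309, 645 and 1440 IR cells held 0, 1 to 4, and 5 or more of them, with 206 IR cells at 4 or 5. In the IR library Retnlg stood at 17605, 12344 and 6314 CPM in these groups and Mmp8 at 1392, 1064 and 389 CPM. S100a8 stood at 58913, 50496 and 34601 CPM and S100a9 at 89579, 79584 and 59996 CPM. In each of these series the intervals of neighboring groups did not overlap. The activation genes themselves summed to 26015 CPM in IR neutrophils and 3291 CPM in sham. Ngp stood at 97.1 (54.3 to 160), 83.7 (55.2 to 122) and 36.1 CPM (23.6 to 52.9) in the IR groups, on 15, 27 and 26 UMIs. Ltf did not follow, with 0, 2 and 11 UMIs in the IR groups, and Camp had 1, 0 and 0. Lcn2 (3883, 3845 and 2585 CPM) and Wfdc21 (2097, 1904 and 1126 CPM) were alike in the lower groups and lower in the highest, and Mmp9 stood at 1133, 831 and 472 CPM. In sham, S100a8 stood at 52288, 33432 and 23923 CPM, S100a9 at 103739, 68000 and 55231 CPM and Retnlg at 11621, 8494 and 3000 CPM.

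The libraries were also set side by side at the same number of activation UMIs. Among cells with none, S100a8 was at 52288 CPM in sham (50680 to 53934) and 58913 CPM in IR (57708 to 60136). Retnlg was at 11621 (10869 to 12411) and 17605 CPM (16950 to 18279), Wfdc21 at 1176 (946 to 1446) and 2097 CPM (1875 to 2338), Lcn2 at 1961 (1660 to 2301) and 3883 CPM (3579 to 4207), and Mmp8 at 353 (233 to 514) and 1392 CPM (1212 to 1591). Each of these was higher in IR, while S100a9 was lower, at 103739 (101469 to 106047) and 89579 CPM (88093 to 91084). Mmp9 was at 1255 (1016 to 1532) and 1133 CPM (971 to 1313), intervals that overlapped. In the other groups these 2 genes stood otherwise. S100a9 was higher in IR, at 68000 (65484 to 70588) and 79584 CPM (78614 to 80564) with 1 to 4 activation UMIs and at 55231 (51264 to 59423) and 59996 CPM (59431 to 60564) with 5 or more. Mmp9 was lower in IR, at 1309 (980 to 1712) and 831 CPM (734 to 937) and at 1154 (646 to 1903) and 472 CPM (423 to 525). In the IR group with 5 or more, Mmp9 was also above Mmp8, at 389 CPM (345 to 437). Neutrophils without activation UMIs were 153 of 260 in sham and 309 of 2394 in IR, and differed in depth, with a median of 1912 and 3744 UMIs before thinning.

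**Figure D4:**
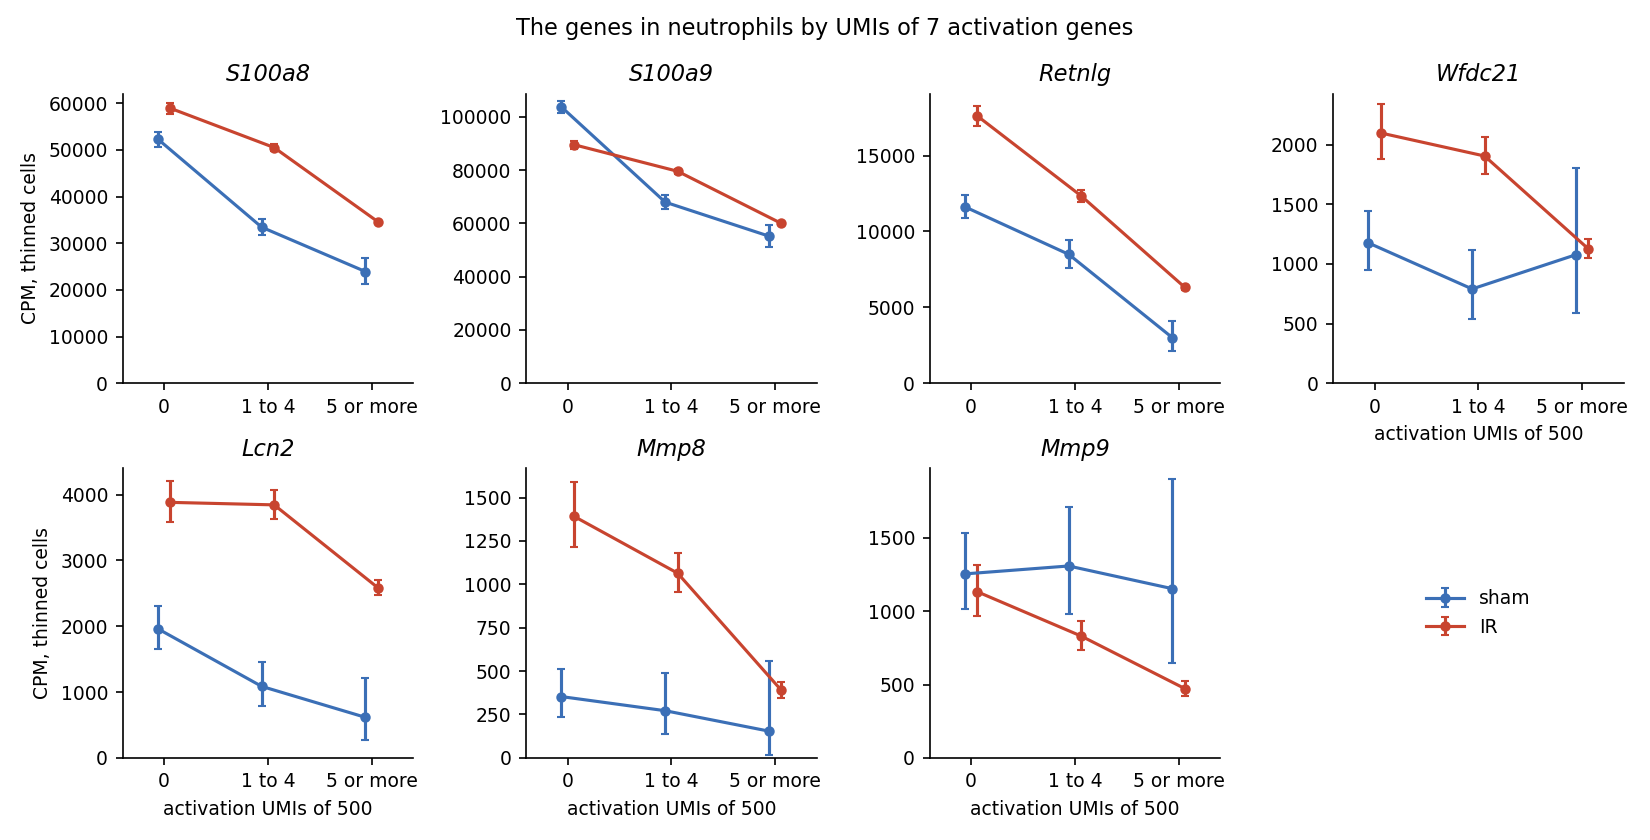
CPM of 7 genes in neutrophils thinned to 500 UMIs (y axes, from 0), grouped by their UMIs of 7 activation genes (x axis), in the sham (blue) and IR (red) libraries, with 95% Poisson intervals. In IR, S100a8 runs from 58913 to 34601 CPM and Retnlg from 17605 to 6314 CPM, and Mmp9 in sham stays between 1154 and 1309 CPM.

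Other genes of the granules and of the partners of these proteins were counted from lists by the same 2-fold limit, which 9.20% of all genes passed as higher and 26.3% as lower in IR neutrophils. Among specific, gelatinase and secretory granule genes, 22 of 23 reached the minimum in neutrophils, 5 higher in IR, 5 lower and 12 neither, the lower ones being near the share over all genes. The most abundant were the protease inhibitor Slpi (4208 and 1781 CPM in sham and IR), the lysozyme Lyz2 (3425 and 656 CPM) and haptoglobin, Hp (2297 and 1631 CPM). Named after their values were seen, the higher ones were Itgam, Cd177, Stfa2, Stfa2l1 and BC100530 and the lower ones Cybb, Pglyrp1, Lyz2, Slpi and Ceacam1. Of 7 azurophil granule genes in the matrices none reached the minimum. The most abundant were Prtn3 (4.78 and 3.46 CPM), Prss57 (1.59 and 2.47 CPM) and Ms4a3 (0 UMIs and 1.38 CPM), and Elane had no UMI in the neutrophils of either library.

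Among genes of the granule programme and of precursors, 2 of 7 reached the minimum, with none higher and 1 lower, Padi4, which converts arginine to citrulline (57.3 and 18.5 CPM). Cebpe, the C/EBP factor of specific granules, had 22.3 and 12.04 CPM and Cebpa 11.1 and 3.36 CPM. Of 7 other S100 genes, 5 reached it, with none higher and 2 lower, S100a4 and S100a10. S100a6 had 6564 and 5420 CPM, S100a11 7788 and 4014 CPM and S100a10 148 and 40.6 CPM. Of 10 receptors and inhibitors, 7 reached the minimum, 2 higher (Tlr4 and Timp1) and 3 lower (Lrp1, Cd36 and Timp3). Beside the counts of each of these lists, 9.20% of all genes were higher and 26.3% lower. Tlr4, a receptor for calprotectin, had 27.1 and 193 CPM, the formyl peptide receptor Fpr2 191 and 334 CPM, and Timp2, an inhibitor of metalloproteinases, 186 and 177 CPM. Timp1 had 6.37 and 35.3 CPM, on 4 sham UMIs. It passed the minimum only through IR, so its call as higher was fixed by the minimum.

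The genes most like each member were found by Pearson's r of log2(CPM + 10) over 15 points. Each point was 1 cell type in 1 library with at least 20 cells, and the values only describe points that share 2 libraries. For S100a8 and S100a9 they were Il1r2, Irg1 and Slfn4 (r of 0.98, 0.97 and 0.97 for S100a8). For Retnlg they were Irg1, Il1r2 and Asprv1 (0.98 each), for Wfdc21 Cxcr2, Mrgpra2b and Gm17619 (0.98 each) and for Mmp8 Tarm1, Fpr2 and Trem1 (0.99, 0.98 and 0.98). For Mmp9 they were Ly6g, Cxcr2 and Itgb2l (0.99 each). Among the genes named, Il1r2, Cxcr2, Ly6g and Trem1 were markers of the neutrophil class, so their likeness was partly set by the class gate. Lcn2 had the loosest likeness, to AA467197, Upp1 and Lrg1 (0.92, 0.92 and 0.91). The genes most like Ngp (Pglyrp4, 4930509K18Rik and Slc32a1), Camp (Tuba8, Gm13480 and 2310001K24Rik) and Ltf (Gm44368, Hist1h2ao and Gm7854) had at most 23.9 CPM in neutrophils. Ngp, Camp and Ltf were highest in sham neutrophils, where they came mainly from 1 cell. There 4930509K18Rik, Gm13480, 2310001K24Rik, Gm44368 and Hist1h2ao had 1.59 CPM, the level of 1 UMI. These likenesses thus do not describe genes that vary together among cells.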

How the data were processed

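The authors built 10× Chromium 3′ v2 libraries, ran Cell Ranger against mm10, and deposited 1 matrix of raw UMI counts per condition, with genes in rows and barcodes in columns and no normalization. The matrix headers name Cell Ranger 3.1.0, and the study's reporting summary names another version. Cells were kept at 200 to 2500 genes and at most 30% mitochondrial UMIs, the limits of the study. A cell joined a class with at least 3 UMIs from at least 2 markers of that class that made up at least 2/3 of its UMIs of all marker lists (56 markers, 55 in the matrices). Doublets were removed only through the upper limit on genes and the marker share.

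From the deposited counts, UMIs were summed by class and divided by the class total (CPM). Intervals are exact Poisson for sums, Clopper–Pearson for shares and conditional binomial for ratios, at 95%. Ratios of single genes used the counts as found and were not given where either count was 0. For the counts of genes past 2-fold and the median log2 ratios, a count under 3 UMIs was set to 3. Thinning drew 500 UMIs of each cell without replacement. No cell could be assigned to a sample, so no model was fitted. Ratios and thinning were tested on simulated data. The members and gene lists were chosen with earlier results of these data known. The text names all 10 members, the 3 most abundant genes of each other list, and the 3 genes most like each member. The listed genes Trbc2, Azu1 and Cebpd were not analysed here. Alternatives changed the filters, the class gate, the markers, the scaling, the minimum and the thinning. Promoters come from RefSeq and positions from GENCODE M21. Scripts ran under Python 3.11.15. The packages were matplotlib 3.10.9, pandas 2.3.3, scipy 1.17.1 and numpy 2.4.6.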

Additional observations from a re-analysis of the deposited data

Results flagged for a closer look

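As CPM, several genes went in opposite directions in the cells that make them and in cells that should lack them, and this difference itself was not tested, because each condition is 1 library. In neutrophils the log2 ratio of IR over sham was −0.059 for S100a8, −0.35 for S100a9, −0.96 for Mmp9 and −0.24 for Retnlg, each with an interval of counting error below 0. In lymphocytes it was 4.53 for S100a8, 4.41 for S100a9, 3.03 for Mmp9 and 4.72 for Retnlg, each with an interval above 0. Counted per cell, S100a8, S100a9 and Retnlg were 1.68-fold, 1.37-fold and 1.48-fold higher in IR neutrophils, the same direction as in lymphocytes. The sign of S100a8 in neutrophils rests on 1 sham cell, as given above.

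Cells that met no class gate were used in no comparison and also held these transcripts. The 10 genes summed to 3262 CPM in the 539 such IR cells and to 2215 CPM in the 1359 such sham cells, beside neutrophil markers at 929 and 1467 CPM.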

How the results depend on the processing

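No paired analysis was possible because no barcode carries its sample number, and replicates could not be left out for the same reason. For the summed genes the log2 ratio of IR over sham in neutrophils, −0.24 as reported, was −0.43 without the upper limit on genes, −0.45 under the stricter and −0.037 under the looser class gate, −0.21 without G0s2 and Trem1 as markers, −0.28 with the genes left out of the total, −0.21 as a mean over cells and −0.17 without the single sham cell. In lymphocytes, 3.99 as reported, it was 3.59 under the stricter gate, 4.19 with B cells alone and 3.60 without cells of 10 or more calprotectin UMIs. In stromal cells, 4.39 as reported, it was 2.87 without the upper limit, 4.00 and 3.23 under the stricter and looser gates, 4.60 with fibroblasts alone and 4.85 without the same cells. Members at least 2-fold higher in neutrophils were 0 in place of 1 without the upper limit and under the stricter gate, and members at least 2-fold lower were 1 in place of 3 under the stricter gate, 0 without G0s2 and Trem1 and 0 without the single cell. They were 4 without the upper limit and as a mean over cells, where the log2 ratio of Mmp9 was −1.11 and −1.01. All genes past 2-fold were 469 higher and 1340 lower as reported, 244 and 437 at a minimum of 50 CPM, and 8914 lower with no minimum. The last count does not describe lower levels. Counts under 3 UMIs were set to 3, which is 4.78 CPM in sham and 0.296 CPM in IR neutrophils. A gene with next to no UMIs was therefore scored as lower in IR.

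The ratio of Ngp turned to 0.48 under the stricter gate, to 0.60 without G0s2 and Trem1 and to 0.66 without the single cell. That of Ltf turned to 1.79 and 1.88 under the latter pair of settings, and under the stricter gate sham had no Ltf UMI and no ratio. That of S100a8 turned to 0.14 under the looser gate and 0.023 without the single cell. The cause of the other shifts was not tested. The single-cell alternative and that without cells of 10 or more calprotectin UMIs were chosen after seeing the data. Thinned to 1000 UMIs, S100a9 was found in 2.88% of sham and 34.0% of IR lymphocytes. Sham neutrophils number 260 at low depth, so levels near 1 UMI in 260 cells are not resolved.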
